A study of Mus musculus with 12 samples.

Results

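Small nuclear RNA (snRNA) genes were followed in RNA-seq counts from the brains of 12 mice. The members were the genes of the count table whose recovered name has the GENCODE M21 mouse gene type snRNA. They numbered 76 of the 15928 genes in the table and of the 1349 genes to which a name could be given. The annotation lists 1385 snRNA genes, and 84 of them stood in the study's own DESeq2 table, from which the names come. The other 8 of those 84 matched no single gene of the count table, and any snRNA gene outside the 84 was present at most without a name. The study's table was ranked by its test of genotype, so the difference between Tg and Wt mice largely decided which genes carry a name. In a DESeq2 fit made here, all 1226 genes at an unadjusted p under 0.05 for genotype were among the 1349 named genes. Values for that comparison are therefore a description. The ranking was not by library batch, sex or the interaction of sex with genotype, although its test was adjusted for sex and batch.

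The mice were Tg2576 transgenic animals (Tg, n = 7), which carry human APP with the Swedish mutation under a hamster prion protein promoter, and wild-type animals (Wt, n = 5), all 11 months old by the labels. RNA came from a brain section with hippocampus and cortex, ribosomal RNA was removed, and total RNA libraries were read on an Ion Torrent S5XL. Batch 1 of library preparation and sequencing held the Wt mice 12 (female), 41 and 95 (both labelled male) and the Tg mice 32, 91, 92 and 93 (females) and 67 (male). Batch 2 held the Wt females 79 and 80 and the Tg males 68 and 69, and there sex and genotype cannot be told apart. The libraries held 15768135 to 20996174 counts.

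App and Xist were read as checks of genotype and sex. App, the gene of the amyloid precursor protein, was at 1214 to 1496 CPM (counts scaled to library size with TMM factors) in the Wt mice and at 2991 to 5727 CPM in the Tg mice. Xist, the RNA of the inactive X chromosome, was at 150 to 233 CPM in the 7 mice labelled female and at 0.0563 CPM or less in 4 of the 5 labelled male. Mouse 41, a Wt mouse labelled male, had 199 CPM of Xist, which lies within the range of the females, so the counts and medians for sex are given with and without it. Mouse 80, a Wt female of batch 2, also stood apart. It held the lowest value of 32 of the 76 snRNA genes, and values that it moves most are given with and without it.

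Small nuclear RNAs form the RNA core of the spliceosome, the particle that removes introns from messenger RNA precursors. In the major spliceosome U1 recognizes the start of the intron, U2 pairs with the branch point, U5 holds the exon ends and U6, which arrives paired with U4, forms part of the catalytic centre. A minor spliceosome with U11, U12, U4atac and U6atac serves a small class of introns and shares U5. In the mouse genome most of these RNAs are encoded by many copies, a few intact and many diverged. Mouse U1 comes in U1a forms and in U1b forms, the latter known as embryonic forms that are reduced in most adult tissues.

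Each member was assigned to a family by its sequence. The set below shows the leading genes of the minor spliceosome, because Rnu12 and Rnu11 parted in a single mouse. The sequences are those of the GENCODE M21 transcripts on GRCm38, written as DNA from 5' to 3' on the gene's own strand. Capitals mark the 5' end of Rnu11 (chr4:132270080-132270213, minus strand) that pairs with the start of minor introns and the branch point pairing stretch of Rnu12 (chr15:83149644-83149794, plus strand). In the U4atac gene Gm22710 (chr1:118459141-118459265, minus strand) they mark the binding site of the Sm proteins, and in the U6atac gene Gm25541 (chr2:27539805-27539930, minus strand) the stretch that pairs with the start of minor introns.
Rnu11: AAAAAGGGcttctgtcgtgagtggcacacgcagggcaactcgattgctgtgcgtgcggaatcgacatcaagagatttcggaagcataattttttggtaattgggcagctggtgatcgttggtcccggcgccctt
Rnu12: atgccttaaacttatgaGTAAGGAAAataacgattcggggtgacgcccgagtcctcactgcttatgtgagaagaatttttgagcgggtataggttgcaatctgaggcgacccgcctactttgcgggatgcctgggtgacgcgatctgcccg
Gm22710: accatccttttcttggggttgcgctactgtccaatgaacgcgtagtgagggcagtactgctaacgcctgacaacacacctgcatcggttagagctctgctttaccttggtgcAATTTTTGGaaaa
Gm25541: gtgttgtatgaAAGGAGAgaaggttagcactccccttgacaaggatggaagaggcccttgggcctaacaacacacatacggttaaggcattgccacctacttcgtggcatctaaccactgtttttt

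The 76 genes fell into 8 U1a, 8 U1b, 9 diverged U1, 9 U2, 5 U5, 31 U6, 3 U12 and a single U11, U4atac and U6atac gene. No U4 gene was among them. They had 47 distinct sequences, and 35 members shared their sequence with another member. Of the U1a genes 7 were identical to one another and Gm24305 was not. Among the U6 genes 19 were identical, and each of them has 42 identical genes elsewhere in the annotation, the other members included. The authors counted reads that were unique and unambiguous, and how a read of an identical copy was given to 1 gene is not stated, so the split of reads among such copies is uncertain.

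Most genes lay outside other genes, with 46 intergenic, 27 in an intron and 3 over an exon of another gene. The U1b genes stood together, 7 of them in a cluster on chromosome 3, with the other on chromosome 4. The U1a genes stood in a cluster of 6 on chromosome 12 and a pair in an intron of Tex14 on chromosome 11. Gm22710 lay over an exon of 2900060B14Rik within Clasp1 on the same strand as the former, and Rnu11 over an exon of Gm28872 on the opposite strand. Whether counting used the strand is not stated, so reads of such neighbours may be in these values.

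The branch point pairing letters GTAAGGAAA were searched for in the U12 transcripts on their own strand, and all 3 held them. A short stretch was searched for in each other family too. Of the 9 diverged U1 genes 2 held theirs and 7 did not, and of the 9 U2 genes 7 did and 2 did not. Every gene of the remaining families held its own, but U4atac and U6atac were assigned by such motifs.

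Levels spanned a wide range. The mean over the 12 mice was at least 1000 CPM for 11 genes, between 100 and 1000 CPM for 12, between 10 and 100 CPM for 11 and under 10 CPM for 42, among them all 31 U6 genes. Reads that fit several identical genes may be missing from counts of unique reads. A low U6 level here therefore need not mean that U6 RNA was scarce, and families are not ranked by abundance. The 5 most abundant genes held 46.0 percent of the summed level. Rnu5g was the most abundant, at a mean of 3056 CPM, and a U6 gene the least, at 1.08 CPM. Scaled to length, the mean level was 26345 CPM per kilobase for Rnu5g, 17665 for the U1a gene Gm24305, 11453 for Rnu12, 6937 for Rnu11, 6619 for Gm25360, 5933 for Rnu1b1, 3518 for Gm22710, 2625 for Gm25541 and 45.9 for Gm24019.

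The families differed in how far their share of the summed level varied. U1a genes held 46.2 to 57.7 percent of it, U5 genes 16.5 to 22.7 percent, U1b genes 5.92 to 17.0 percent, U2 genes 4.43 to 11.3 percent and U6 genes 0.200 to 0.412 percent. Genes of the minor spliceosome alone, 6 in all, summed to 1843 CPM in mouse 80, 2782 to 3318 CPM in the other Wt mice and 3351 to 4444 CPM in the Tg mice.

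**Figure D1:**
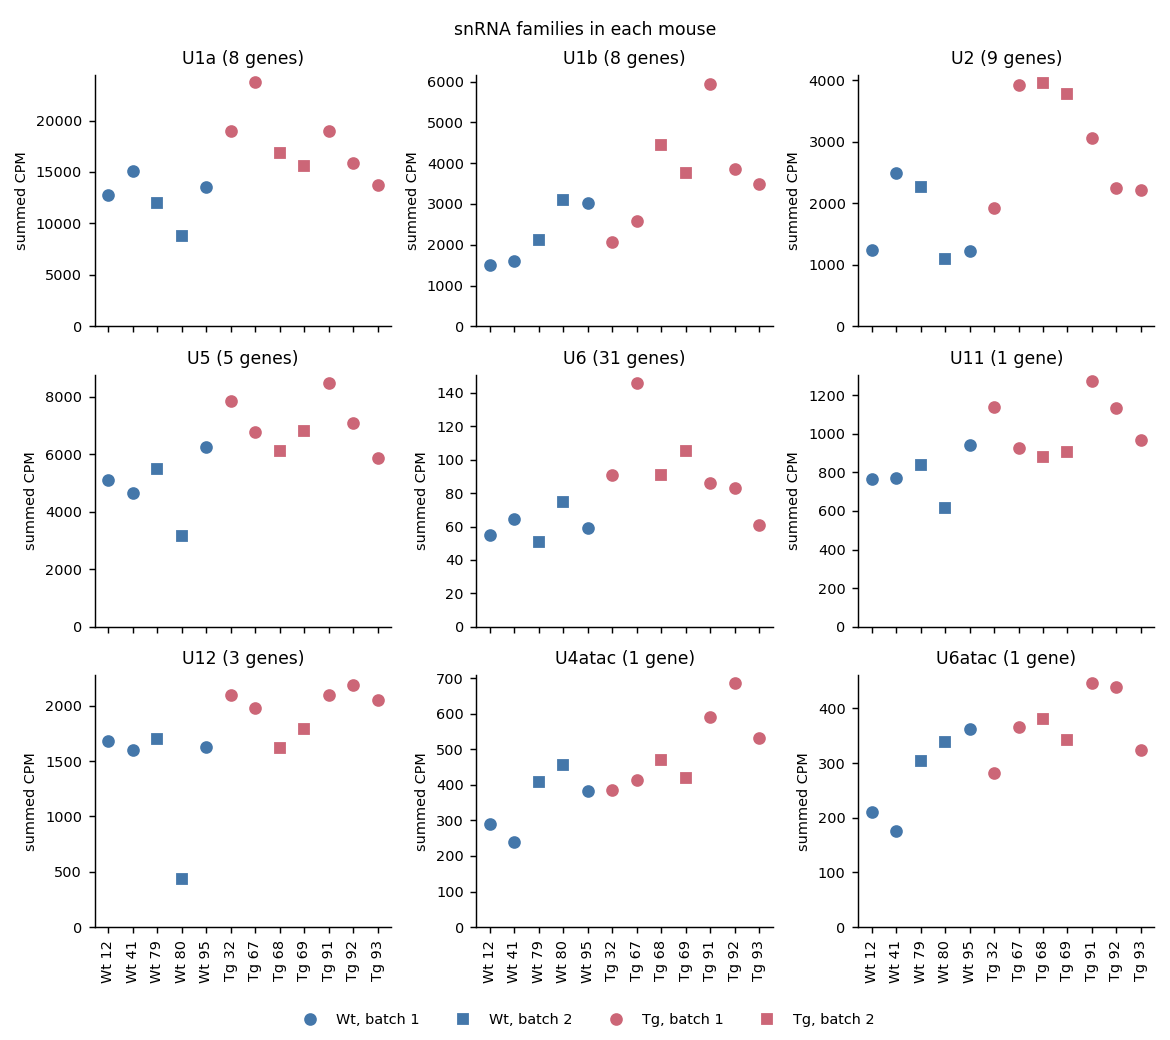
Summed level of each snRNA family in CPM (vertical axis, from 0) in each of the 12 mice (horizontal axis), 1 point per mouse, blue for Wt and red for Tg, circles for batch 1 and squares for batch 2, without the diverged U1 genes. U12 in Wt mouse 80 sits at 432 CPM, below 1597 to 2187 CPM in the other mice, and U1b reaches 5949 CPM in Tg mouse 91.

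The first comparison was that of genotype. The summed level of the 76 snRNA genes was higher in every Tg mouse than in every Wt mouse. It was 23721 CPM in Wt mouse 12, 26800 in mouse 41, 25302 in mouse 79, 18128 in mouse 80 and 27538 in mouse 95. In the Tg mice it ran from 29336 CPM in mouse 93 through a median of 34937 in mouse 68 to 41156 in mouse 91. The groups did not overlap, with 24298 ± 3747 CPM (SD, n = 5) in Wt and 35555 ± 4252 CPM (SD, n = 7) in Tg mice, and the difference of the means exceeded either SD. Every member was named through the table ranked by genotype, so nothing is read from this separation. As a share of library counts the snRNA genes made up 1.89 to 2.73 percent in Wt and 2.94 to 4.06 percent in Tg mice. In bulk tissue, more cells of a type rich in snRNA and more snRNA per cell cannot be told apart. The difference in mean log2 CPM between Tg and Wt mice was 0.56, 0.45 without mouse 80 and 0.47 in batch 1 alone. In batch 2 the Tg mice had 34937 and 33617 CPM and the Wt mice 25302 and 18128 CPM.

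By gene, all 76 members had a higher fitted level in Tg mice. The log2 fold changes ran from 0.36 to 1.26 with a median of 0.61, beside a median of 0.00 over all 15928 genes and of 0.32 over the 1349 named genes, of which 754 were higher and 595 lower. At an adjusted p under 0.1 (edgeR quasi-likelihood test, Benjamini-Hochberg) 0 of the 76 were called, where 0.00628 percent of all genes were, while 67 had an unadjusted p under 0.05, where 7.19 percent of all genes did, and DESeq2 called 10, where it called 0.352 percent of all genes, and 3, Gm24305, Gm26232 and Gm25813, when mouse 41 was left out, where it called 0.132 percent. DESeq2 gave 73 members at an unadjusted p under 0.05, beside 7.70 percent of all and 90.9 percent of named genes, and 47 without mouse 41, beside 5.05 and 45.6 percent. Among all named genes 1097 of 1349 had an unadjusted p under 0.05 by edgeR. Naming drew on the same contrast. Nothing is read from the counts at an adjusted or unadjusted p, by either tool or in any fit. The edgeR count was 38 without mouse 41, 38 without mouse 95, 38 in batch 1 alone with no sex term, where mice and model changed together, and 37 with mouse 41 taken as female. The median log2 fold changes were 0.55, 0.54, 0.58 and 0.53, and 4.73, 9.64, 5.89 and 6.42 percent of all genes and 42.6, 61.2, 37.6 and 67.2 percent of named genes passed in the same fits. Every Tg mouse exceeded every Wt mouse in 5 members, and in 0.220 percent of all genes. The members were Gm24305, Gm24830, Gm26232, Rnu1b6 and Gm25790. Since naming drew on the genotype contrast, nothing is read from this count either.

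**Figure D2:**
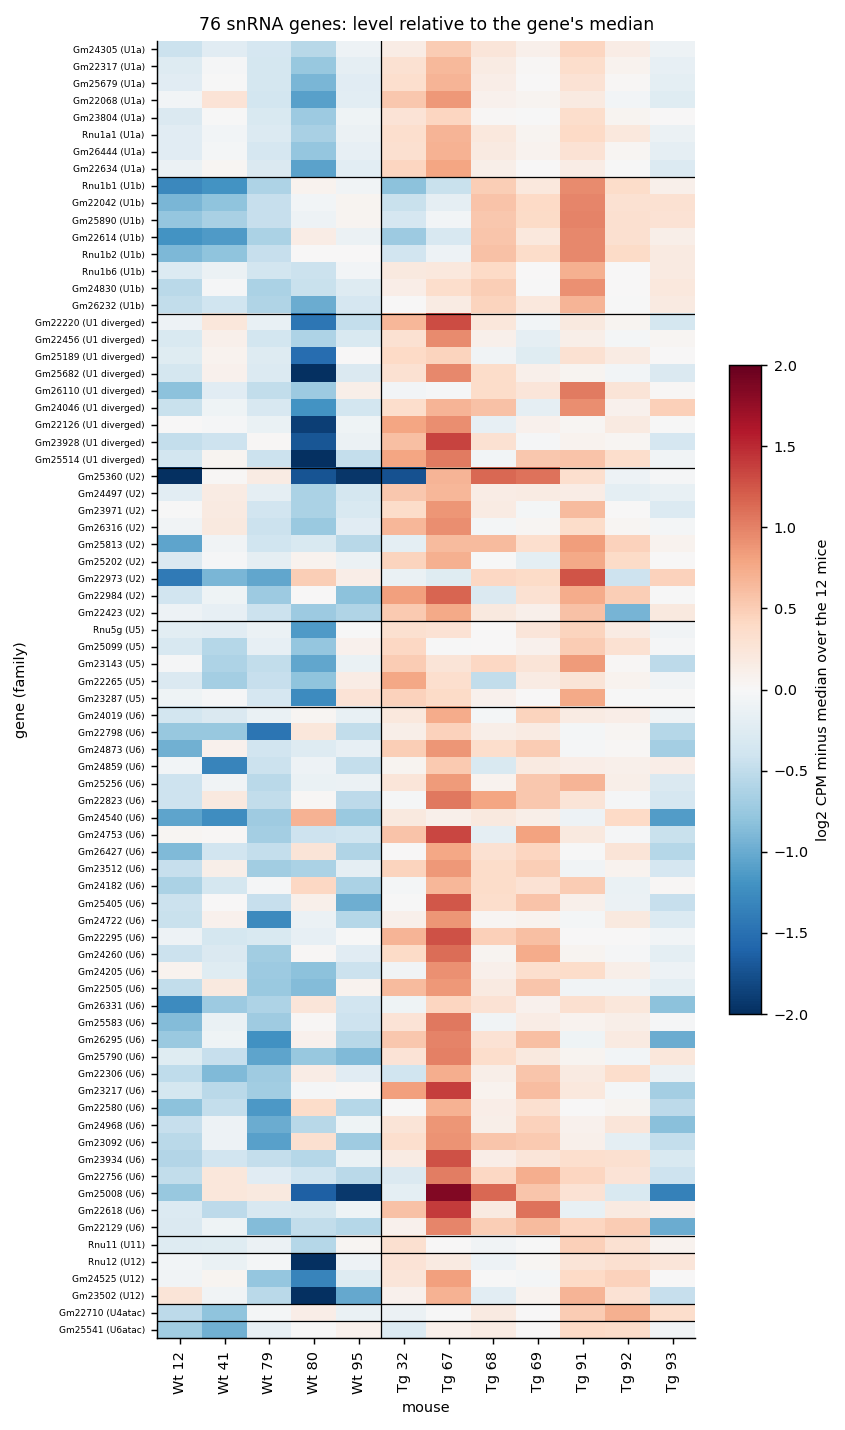
Level of each of the 76 snRNA genes (vertical axis, grouped by family) in each mouse (horizontal axis, Wt left of the line and Tg right of it), as log2 CPM minus the gene's median over the 12 mice, red above and blue below, with colours held at 2 and -2. Tg mouse 67 holds the highest value of 52 genes and Tg mouse 91 of 19, and Wt mouse 80 the lowest of 32.

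U1a genes, the standard form of U1 in adult tissue, summed to 8808 to 15061 CPM in Wt and 13702 to 23724 CPM in Tg mice, which overlapped. Gm24305, the most abundant of them, was at 2111 CPM in Wt mouse 12, 2430 in mouse 41, 2251 in mouse 79, 1953 in mouse 80 and 2660 in mouse 95, and at 2665 (mouse 93), 3164 (median, mouse 92) and 4074 CPM (mouse 67) in the Tg mice. The groups met without overlap, the highest Wt mouse lying just below the lowest Tg mouse. Its log2 fold change was 0.53 (SE 0.11), with an adjusted p of 0.574 by edgeR and 0.00205 by DESeq2, both Benjamini-Hochberg. Rnu1a1 was at 991 ± 149 CPM (SD, n = 5) in Wt and 1427 ± 257 CPM (SD, n = 7) in Tg mice. In 6 of the 7 Tg mice it exceeded the highest Wt value, and its log2 fold change of 0.49 (SE 0.12) had adjusted p values of 0.597 by edgeR and 0.0369 by DESeq2 (Benjamini-Hochberg). The 8 genes had log2 fold changes from 0.39 to 0.53. Since 7 of them are identical, they are not separate measurements. Of the summed level of these 7, the gene Gm25679, chosen after its values were seen, took 19.6 to 20.7 percent in the 12 mice, while Gm22068, chosen in the same way, took 13.8 percent in mouse 80 and up to 19.3 percent in mouse 41.

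U1b genes had the highest median log2 fold change of the families, 0.75, and varied more among mice than the U1a genes. Rnu1b1 was at 413 CPM in Wt mouse 12, 441 in mouse 41, 659 in mouse 79, 1061 in mouse 80 and 958 in mouse 95, and at 572 (mouse 32), 1169 (median, mouse 69) and 1935 CPM (mouse 91) in the Tg mice. The groups overlapped, with mice 32 and 67 among the Wt values and the other 5 of 7 Tg mice higher than any Wt mouse. Its log2 fold change of 0.78 (SE 0.30, edgeR adjusted p 0.637, Benjamini-Hochberg) was 1.15 without mouse 95. Rnu1b2, identical in sequence to Rnu1b1, had 232 ± 67.7 CPM (SD, n = 5) in Wt and 384 ± 118 CPM (SD, n = 7) in Tg mice. Rnu1b1 held 71.1 to 77.8 percent of the level that these identical genes share.

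The share of U1b in the level of U1a and U1b together was 9.66 percent in Wt mouse 41, 10.5 in mouse 12, 14.9 in mouse 79, 18.2 in mouse 95 and 25.9 in mouse 80, and 9.85 (mouse 67), 19.6 (median, mouse 92) and 23.8 percent (mouse 91) in the Tg mice. High and low shares occurred in both groups. Low shares, under 11 percent, were in the Wt mice 12 and 41 and the Tg mice 32 and 67, all of batch 1.

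The U1b genes with the smallest p values were those of low level with the sequence of Rnu1b6. Gm26232 was at 11.0 CPM in Wt mouse 12, 11.8 in mouse 41, 10.2 in mouse 79, 7.80 in mouse 80 and 12.3 in mouse 95, and at 15.4 (mouse 92), 17.6 CPM (median, mouse 93) in the Tg mice, with a mean of 18.6 ± 3.39 CPM (SD, n = 7) and the highest level in mouse 91. No Tg mouse reached down to a Wt value. It had a log2 fold change of 0.80 (SE 0.14), an unadjusted p of 8.97e-05, the smallest of the 76, and an adjusted p of 0.286 by edgeR and 0.00115 by DESeq2 (Benjamini-Hochberg). Gm24830 and Rnu1b6, the other genes of this sequence, had log2 fold changes of 0.68 (SE 0.17) and 0.49 (SE 0.13). Summed, these 3 genes were at 44.0 to 57.8 CPM in Wt and 64.5 to 109 CPM in Tg mice. Rnu1b6 took 51.3 to 54.6 percent of that sum in Wt and 48.3 to 52.1 percent in Tg mice.

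Diverged U1 genes summed to 108 ± 33.2 CPM (SD, n = 5) in Wt and 168 ± 52.6 CPM (SD, n = 7) in Tg mice. Gm22220, the most abundant of them and in an intron of 1700104L18Rik on chromosome 12, was at 23.5 CPM in Wt mouse 80, 46.1 to 74.9 in the other Wt mice, and 50.2 (mouse 93), 73.3 (median, mouse 91) and 158 CPM (mouse 67) in the Tg mice. The groups overlapped widely. Gm24046, in an intron of Aqp10-ps on chromosome 3, had 3.81 ± 0.966 CPM (SD, n = 5) in Wt and 7.09 ± 1.77 CPM (SD, n = 7) in Tg mice, 6 of 7 of which exceeded the highest Wt value. Its log2 fold change of 0.86 (SE 0.21) had adjusted p values of 0.597 by edgeR and 0.0644 by DESeq2 (Benjamini-Hochberg).

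U2 genes differed most from one another. Gm25360 was at 234 CPM in Wt mouse 12, 1256 in mouse 41, 1380 in mouse 79, 372 in mouse 80 and 320 in mouse 95. In the Tg mice it was at 367 (mouse 32), 1557 (median, mouse 91) and 2732 CPM (mouse 68). The 12 mice fell apart by level and not by group, since 3 Wt mice and Tg mouse 32 lay between 234 and 372 CPM and all others between 1145 and 2732 CPM. The log2 fold change was 1.26 (SE 0.44), the largest of the 76, with an adjusted p of 0.611 by edgeR and 0.566 by DESeq2 (Benjamini-Hochberg). It was 1.10 without mouse 80 and 1.85 without mouse 41. Gm25360 made up 19.0 percent of the U2 level in Wt mouse 12 and 69.2 percent in Tg mice 68 and 69. Without this gene the summed snRNA level was 17755 to 27218 CPM in Wt and 28124 to 39599 CPM in Tg mice, still without overlap. Nothing is read from that separation either.

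Gm23971, a U2 gene chosen after its values were seen, did not follow that split. It was at 334 CPM in Wt mouse 12, 382 in mouse 41, 259 in mouse 79, 216 in mouse 80 and 273 in mouse 95, and at 277 (mouse 93), 378 (median, mouse 68) and 620 CPM (mouse 67) in the Tg mice. The groups overlapped, and its highest value over its lowest was 2.87, beside 11.7 for Gm25360. Gm25813, a U2 gene on chromosome 8, was at 44.9 ± 10.6 CPM (SD, n = 5) in Wt and 82.2 ± 19.3 CPM (SD, n = 7) in Tg mice. Its log2 fold change was 0.88 (SE 0.19), with 6 of the 7 Tg mice over the highest Wt value and adjusted p values of 0.574 by edgeR and 0.00474 by DESeq2 (Benjamini-Hochberg).

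**Figure D3:**
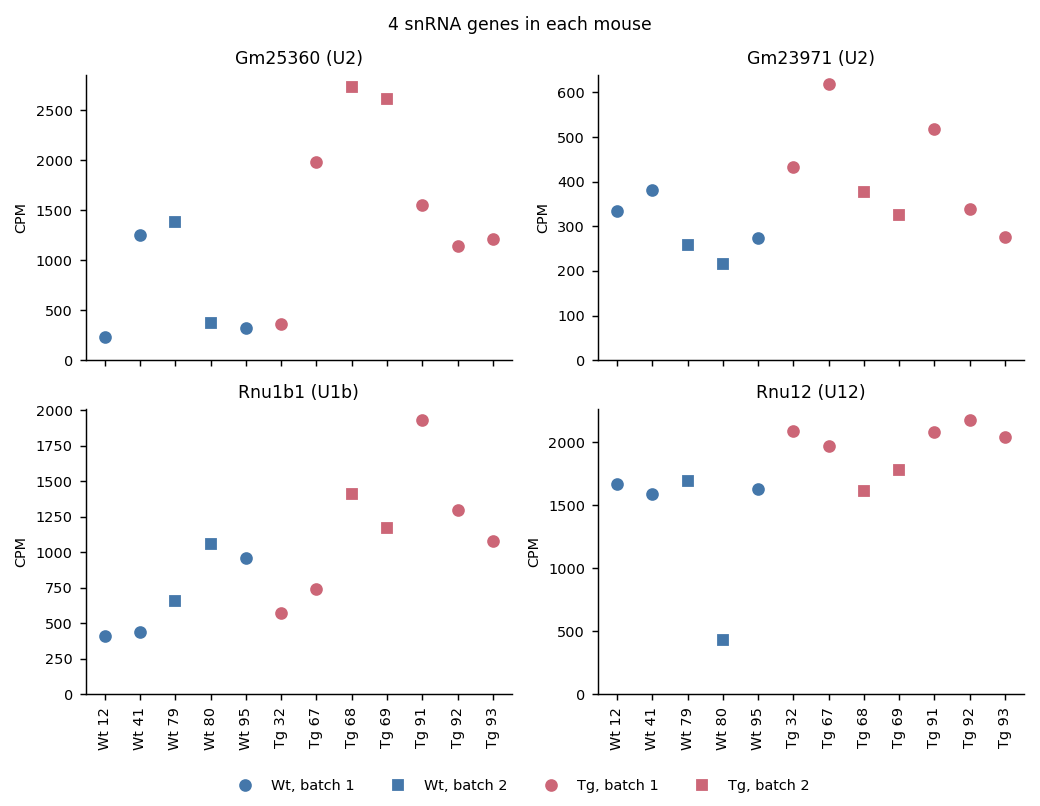
Level in CPM (vertical axes, from 0) of the U2 genes Gm25360 and Gm23971, the U1b gene Rnu1b1 and the U12 gene Rnu12 in each mouse (horizontal axes), 1 point per mouse, blue for Wt and red for Tg, circles for batch 1 and squares for batch 2. Gm25360 runs from 234 to 2732 CPM and Gm23971 from 216 to 620 CPM, and Rnu12 in Wt mouse 80 lies at 429 CPM.

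U5, the snRNA that both spliceosomes share, was carried by a pair of abundant genes. Rnu5g was at 2612 CPM in Wt mouse 12, 2573 in mouse 41, 2772 in mouse 79, 1369 in mouse 80 and 3002 in mouse 95, and at 2868 (mouse 93), 3559 (median, mouse 69) and 4110 CPM (mouse 91) in the Tg mice. Mouse 80 was low, and of the Tg mice all but mouse 93 exceeded all Wt mice. The log2 fold change was 0.47 (SE 0.16, edgeR adjusted p 0.611, Benjamini-Hochberg) and 0.35 without mouse 80. Gm25099, the other abundant U5 gene, chosen after its values were seen, was at 2365 ± 543 CPM (SD, n = 5) in Wt and 3376 ± 535 CPM (SD, n = 7) in Tg mice.

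U6 genes, which RNA polymerase III transcribes, were all of low level and together reached 60.8 ± 9.26 CPM (SD, n = 5) in Wt and 94.6 ± 26.1 CPM (SD, n = 7) in Tg mice. The highest sum was 146 CPM in Tg mouse 67, and Tg mouse 93, at 61.1 CPM, lay within the Wt range of 50.7 to 74.6 CPM. Gm24019, the most abundant of the 31, was at 4.09 ± 0.450 CPM (SD, n = 5) in Wt and 5.50 ± 1.16 CPM (SD, n = 7) in Tg mice. Its log2 fold change was 0.43 (SE 0.18, edgeR adjusted p 0.665, Benjamini-Hochberg), and 5 of the 7 Tg mice exceeded the highest Wt value. Gm25790, in an intron of Arnt2 on chromosome 7, was at 1.10 to 1.93 CPM in Wt mice, or 22 to 33 reads, and at 2.21 (mouse 92), 2.68 (median, mouse 93) and 4.61 CPM (mouse 67) in the Tg mice. All its Tg values lay above all its Wt values, at a log2 fold change of 0.93 (SE 0.23) and adjusted p values of 0.597 by edgeR and 0.0859 by DESeq2 (Benjamini-Hochberg). The 19 U6 genes of this same sequence summed to 30.4 to 49.0 CPM in Wt and 38.2 to 96.6 CPM in Tg mice, which overlapped. At the other end stood Gm25008, a shortened U6 copy with 1.94 ± 1.39 CPM (SD, n = 7) in Tg and 0.895 ± 0.559 CPM (SD, n = 5) in Wt mice, and Gm24540, whose highest value, 5.32 CPM, was in Wt mouse 80. These were among the 4 members with the largest unadjusted p, 0.0809 and 0.0667.

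Of the minor spliceosome genes, Rnu12 split off a single mouse. It was at 1669 CPM in Wt mouse 12, 1589 in mouse 41, 1693 in mouse 79, 429 in mouse 80 and 1625 in mouse 95, and at 1614 (mouse 68), 2042 (median, mouse 93) and 2178 CPM (mouse 92) in the Tg mice. All Tg mice but mouse 68 exceeded all Wt mice. Of the Wt mice only 41 and 80 lay below all Tg mice, and mice 12, 79 and 95 lay just above mouse 68. The log2 fold change was 0.46 (SE 0.24, edgeR adjusted p 0.733, Benjamini-Hochberg) and 0.24 (SE 0.085, adjusted p 0.613 by the same test) without mouse 80, and 0.78 (SE 0.20) without mouse 79. Gm23502, a U12 copy on chromosome 14, was likewise lowest in mouse 80, at 0.473 CPM beside 1.63 to 5.36 CPM in the other mice.

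Rnu11, whose product works in a particle with U12, was not as far below the other mice in mouse 80. It was at 764 CPM in Wt mouse 12, 772 in mouse 41, 840 in mouse 79, 616 in mouse 80 and 944 in mouse 95, and at 877 (mouse 68), 966 (median, mouse 93) and 1272 CPM (mouse 91) in the Tg mice. The ratio of U11 to U12 in CPM per kilobase was thus 1.61 in mouse 80 and 0.513 to 0.685 in the other mice. The log2 fold change of Rnu11, 0.36 (SE 0.11, edgeR adjusted p 0.611, Benjamini-Hochberg), was the smallest of the 76.

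Gm22710, the U4atac gene, was at 355 ± 89.1 CPM (SD, n = 5) in Wt and 500 ± 109 CPM (SD, n = 7) in Tg mice. Gm25541, the U6atac gene, was at 278 ± 81.5 CPM (SD, n = 5) in Wt and 369 ± 59.8 CPM (SD, n = 7) in Tg mice. For each, 4 of the 7 Tg mice exceeded the highest Wt value, and both were lowest in mouse 41, at 239 and 175 CPM. Their log2 fold changes of 0.53 (SE 0.16) and 0.44 (SE 0.18) had adjusted p values of 0.611 and 0.665 (edgeR, Benjamini-Hochberg), and that of Gm25541 was 0.27 without mouse 41 and 0.71 without mouse 95. Mouse 80, low for U12, was at 457 CPM of Gm22710 and 338 CPM of Gm25541, at or near the top of the Wt values.

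The second comparison was between the library batches. With genotype and sex in the same edgeR fit, 48 of the 76 genes were lower and 28 higher in batch 2, with a median log2 fold change of -0.19 beside 0.00 over all genes. At an adjusted p under 0.1 (edgeR quasi-likelihood test, Benjamini-Hochberg) 0 members were called, beside 0.00 percent of all genes. DESeq2 gave 71 of the 76 an adjusted p and called 0 of them, beside 0.163 percent of all genes with one. All 76 had an unadjusted p by DESeq2. At an unadjusted p under 0.05 edgeR gave 15 members, all lower in batch 2, or 19.7 percent, where 7.64 percent of all and 11.7 percent of named genes passed in either direction, and DESeq2 gave 17, beside 7.94 and 12.2 percent. The edgeR count changed with the scaling and the model, to 7 with library totals alone and 6 with no sex term, where 10.7 and 4.97 percent of all and 10.7 and 6.60 percent of named genes passed. It also changed with single mice, to 6 without mouse 80, 25 without mouse 79 and 5 without mouse 69, where 3.52, 11.8 and 6.25 percent of all and 8.60, 12.8 and 6.89 percent of named genes passed.

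By family, fitted values for batch were as follows, with no test between families. The 8 U1a genes were at -0.49 to -0.15, and at -0.37 to -0.12 without mouse 80. The 7 with identical sequence, which are not separate measurements, had an unadjusted p under 0.05, where 7.64 percent of all genes did, and Gm24305 had 0.231. Without mouse 80 none of the 8 did, beside 3.52 percent of all genes. The U1b genes were at -0.20 to 0.37. The 9 U2 genes, 3 higher and 6 lower, were at -0.52 to 0.84, with Gm25360 the highest of the 76. They were at -0.59 to 1.06 without mouse 80 and at -0.49 to 1.28 without mouse 41. The U11, U4atac and U6atac genes were at -0.23, 0.15 and 0.16, and at -0.14, 0.09 and 0.09 without mouse 80. The 9 diverged U1 genes, the 5 U5 genes and the 3 U12 genes were all lower, with medians of -0.41, -0.26 and -0.69, and of -0.33, -0.07 and -0.35 without mouse 80. The 31 U6 genes had a median of 0.02, of -0.17 without mouse 80 and of 0.16 without Tg mouse 67.

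Gm24525, a U12 copy in an intron of Zfp804b on chromosome 5, had the smallest p for batch among the 76, 0.00215 unadjusted. In batch 2 it was at 2.43 and 1.66 CPM in Wt mice 79 and 80 and at 4.14 and 4.04 CPM in Tg mice 68 and 69. In batch 1 it was at 3.49 to 4.33 CPM in Wt and 4.19 to 7.32 CPM in Tg mice. Within each genotype the batch 2 mice lay below the batch 1 mice. The log2 fold change was -0.70 (SE 0.18, edgeR adjusted p 0.636, Benjamini-Hochberg) and -0.59 without mouse 80. The U2 gene Gm26316 and the diverged U1 gene Gm25189 followed, at -0.52 (SE 0.16) and -0.57 (SE 0.18), and at -0.48 and -0.37 without mouse 80. Without mouse 79 that of Gm25189 was -0.90 (SE 0.14).

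**Figure D4:**
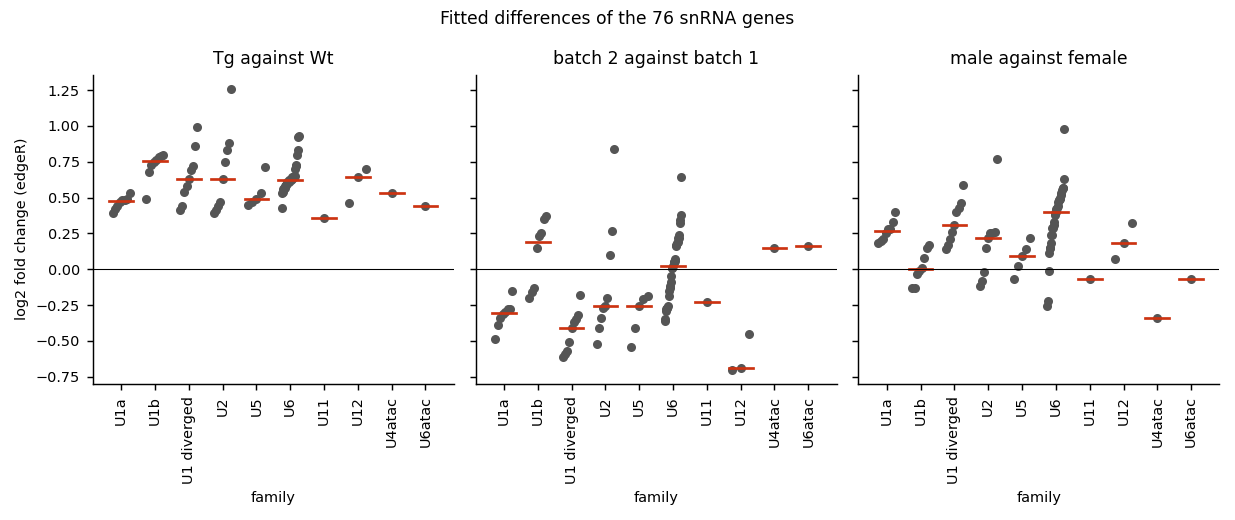
Fitted log2 fold changes of the 76 snRNA genes (vertical axis, edgeR) by family (horizontal axis) for Tg against Wt, batch 2 against batch 1 and male against female mice, 1 grey point per gene and a red bar at the family median. All points lie above 0 for genotype, from 0.36 to 1.26, while those for batch run from -0.70 to 0.84 and those for sex from -0.34 to 0.98.

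The third comparison was between the sexes as labelled. Of the 76 genes 62 were higher and 14 lower in males, or 67 and 9 without mouse 41, with a median log2 fold change of 0.25 beside -0.01 over all genes. At an adjusted p under 0.1 (edgeR quasi-likelihood test, Benjamini-Hochberg) 0 were called, beside 0.00 percent of all genes, and DESeq2 called 0, beside 1.10 percent. At an unadjusted p under 0.05 edgeR gave 8 members, all higher in males, or 10.5 percent, beside 11.3 percent of all and 18.8 percent of named genes, and DESeq2 gave 13, beside 11.8 and 21.2 percent. The edgeR count was 5 without mouse 41 and 5 with that mouse taken as female, where 5.26 and 3.40 percent of all and 9.19 and 5.49 percent of named genes passed, and the medians were 0.25 and 0.24. DESeq2 gave 6 without mouse 41, beside 5.50 percent of all and 11.1 percent of named genes. Without Tg mouse 67 the edgeR count was 2, beside 7.80 percent of all and 13.2 percent of named genes, and the median 0.16. The edgeR count was 23, and the median 0.32, without mouse 95, where 19.8 percent of all and 22.9 percent of named genes passed and edgeR called 540 of all genes and 0 of the members at an adjusted p under 0.1 (Benjamini-Hochberg).

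The genes that led this comparison were U6 copies of a few CPM. Gm22505, on chromosome 3, was at 2.72 CPM in mouse 41, 2.48 in mouse 95, 4.32 in mouse 67, 2.68 in mouse 68 and 3.48 in mouse 69, the mice labelled male. In the mice labelled female it was at 1.30 (mouse 80), 2.07 (median, mouse 93) and 3.67 CPM (mouse 32). The sexes overlapped through mouse 32 alone. Its log2 fold change was 0.63 (SE 0.20, edgeR adjusted p 0.332, Benjamini-Hochberg) and 0.62 without mouse 41. Gm23512 and Gm22823 had 0.57 (SE 0.19) and 0.55 (SE 0.21), and 0.55 and 0.48 without mouse 41. Over the 31 U6 genes the median was 0.40, over the U1b genes 0.00, and without mouse 41 they were 0.43 and 0.08. Without mouse 67 the median over the U6 genes was 0.19.

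The last test was of the interaction, the difference between Tg and Wt in males minus that in females. At an adjusted p under 0.1 (edgeR quasi-likelihood test, Benjamini-Hochberg) 0 of the 76 were called, beside 0.00 percent of all genes, and DESeq2 called 0, beside 0.107 percent. At an unadjusted p under 0.05 edgeR gave 4 members, or 5.26 percent beside 3.56 percent of all and 4.15 percent of named genes, and DESeq2 gave 5, beside 3.63 and 4.15 percent. The median over the members was 0.46, with 30 of 31 U6 genes above 0 and 8 of 8 U1b genes below 0, at -1.47 to -0.21. Over all genes the median was -0.02, with 7705 above 0 and 8223 below. Of the U6 genes 19 are identical in sequence and are not separate measurements. Without Tg mouse 67, the only Tg male of batch 1, 16 of the 31 U6 genes lay above 0 and 7 of 8 U1b genes below it, the edgeR count was 0, beside 6.54 percent of all and 10.8 percent of named genes, and the median -0.04. The only mice labelled Wt male are 41 and 95. Without mouse 41, or with it taken as female, mouse 95 alone stood for the Wt males and the spread came from the other groups, so nothing is read from the counts of those fits. They were 12, beside 6.13 percent of all genes, and 21, beside 11.6 percent, with medians of 0.53 and 0.62, and DESeq2 gave 12 without mouse 41, beside 5.98 percent.

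Gm25790 and Gm24205, U6 genes of identical sequence, and the U6 gene Gm24859 had the smallest p for the interaction. Gm24205 was at 2.11 and 1.86 CPM in the Wt mice labelled male and at 4.73, 2.68 and 3.15 CPM in the Tg males 67, 68 and 69. In females it was at 2.63, 1.51 and 1.42 CPM in the Wt mice 12, 79 and 80 and at 2.39, 3.25, 2.73 and 2.34 CPM in the Tg mice 32, 91, 92 and 93. The males separated by genotype and the females overlapped. The interaction was 1.29 (SE 0.52) for Gm25790, 1.22 (SE 0.50) for Gm24205 and 1.21 (SE 0.53) for Gm24859, each with an adjusted p of 0.992 (edgeR, Benjamini-Hochberg), and without mouse 67 it was 1.19, 1.35 and 0.83. With mouse 95 as the only Wt male, without mouse 41, it was 1.51, 1.31 and 0.84.

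Other small RNA classes were read beside the snRNA genes. The 80 named snoRNA and scaRNA genes were all higher in the Tg fit, with a median log2 fold change of 0.47, and summed to 3277 to 4515 CPM in Wt and 4408 to 5612 CPM in Tg mice. The 7 named misc_RNA genes had a median of 0.48, and the 5 named mitochondrial tRNA genes one of 0.48. These sums overlapped between the groups, with Tg mouse 93 at 4408 CPM for snoRNA and scaRNA and, at 553 CPM, below all Wt mice for mitochondrial tRNA. Like the snRNA genes, these genes were named through the table ranked by genotype. Nothing is read from their direction, or from which sums overlapped. Mouse 80, lowest for the snRNA sum, was at 4515 CPM for snoRNA and scaRNA, the highest of the Wt mice. The part of small RNA recovery in the snRNA result was not tested.

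**Figure D5:**
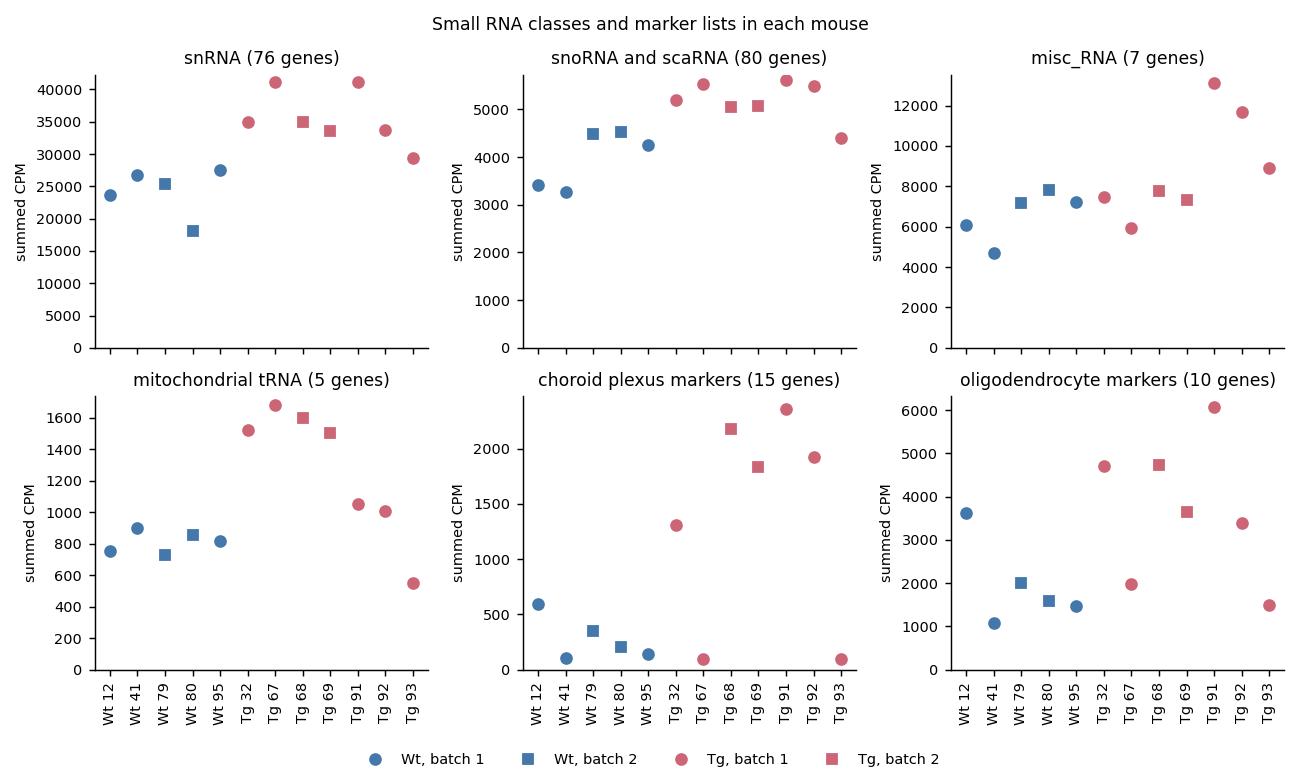
Summed level in CPM (vertical axes, from 0) of snRNA, snoRNA with scaRNA, misc_RNA and mitochondrial tRNA genes and of choroid plexus and oligodendrocyte markers in each mouse (horizontal axes), 1 point per mouse, blue for Wt and red for Tg, circles for batch 1 and squares for batch 2. The snRNA sum, over genes named through a table ranked by genotype, is at 18128 to 27538 CPM in Wt and 29336 to 41156 CPM in Tg mice. The choroid plexus sum does not separate the groups, with Tg mice 67 and 93 at 100 CPM.

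Markers of cell types in the section were read beside the snRNA genes, with no test. All 15 choroid plexus markers had a name, and they summed to 595 CPM in Wt mouse 12, 104 in mouse 41, 350 in mouse 79, 209 in mouse 80 and 141 in mouse 95, with Ttr, the transthyretin gene, the most abundant. In Tg mice they summed to 100 CPM in mice 67 and 93 and to 1310 to 2359 CPM in the others. In mice 67 and 93 Ttr was at 7.21 and 11.7 CPM, below all Wt mice, Clic6 was at 5.19 and 5.47 CPM, within the Wt range of 1.67 to 15.4 CPM, and the snRNA sum was at 41095 and 29336 CPM. With the mean log2 CPM of these markers as a further covariate, chosen after seeing the data, the median log2 fold change of the snRNA genes was 0.59, 0 were called by edgeR and 36 had an unadjusted p under 0.05, as did 2.71 percent of all and 19.5 percent of named genes. The part of the choroid plexus in the snRNA result was not tested. Kcne2 was at 0 in mice 41 and 67, Calml4 and Tmem72 in mouse 41 and Slc4a5 in mouse 93.

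Of the oligodendrocyte markers 10 of 12 had a name, led by Mbp, and they summed to 1089 to 3631 CPM in Wt and 1486 to 6067 CPM in Tg mice. Each of the 10 had a higher mean in Tg mice, and the mean of their sum was 1953 CPM in Wt and 3714 CPM in Tg mice. Of the neuron markers 5 of 12 were named, led by Camk2a, and the 5 summed to 3379 to 5237 CPM in Wt and 2863 to 4067 CPM in Tg mice. Camk2a and Slc17a7 had lower means in Tg mice, while Gad2 (143 and 163 CPM in Wt and Tg), Prox1 (13.9 and 17.7) and Slc17a6 (25.6 and 37.5) had higher ones. Of the astrocyte markers 4 of 8 were named, led by Slc1a2, and the 4 summed to 2698 to 3498 CPM in Wt and 2452 to 3069 CPM in Tg mice. Slc1a2 and Slc1a3 had lower means in Tg mice, while Gfap (138 and 258 CPM) and S100b (77.9 and 95.9) had higher ones. Of the microglia markers 3 of 12 were named, led by C1qb, and the 3 summed to 55.9 to 71.2 CPM in Wt and 69.4 to 90.4 CPM in Tg mice. Clic6 and the markers here that do not lead their list were named after their values were seen. None of the 8 endothelial and mural markers had a name. The markers of every list were named through the table ranked by genotype, so nothing is read from their directions or sums. The part of these other cell types in the snRNA result was not tested.

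Proteins that bind, transcribe or assemble snRNA were mostly out of sight. Of 55 snRNP protein genes and of 37 genes of snRNP assembly and snRNA maturation 0 had a name, and of 37 genes of snRNA transcription and end processing 1 did. Ints3 encodes a subunit of the Integrator complex, which cleaves the 3' end of snRNA precursors. It was at 71.6 CPM in Wt mouse 12, 71.7 in mouse 41, 72.7 in mouse 79, 74.7 in mouse 80 and 67.4 in mouse 95, and at 58.6 (mouse 68), 62.2 (median, mouse 32) and 66.7 CPM (mouse 67) in the Tg mice. All Tg mice lay below all Wt mice, as in 18 of all genes, in the direction opposite to that of the snRNA genes. Its name, too, came from the table ranked by genotype, so nothing is read from this separation.

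Within the Tg group App separated mice 32, 91 and 92, at 2991 to 3393 CPM, from mice 67, 68, 69 and 93, at 5140 to 5727 CPM. Their summed snRNA levels were 34995, 41156 and 33751 CPM in the former and 41095, 34937, 33617 and 29336 CPM in the latter, so both held high and low values. The former were all females of batch 1. The latter held all Tg males and the Tg mice of batch 2, so sex and batch differed between them too.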

How the data were processed

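The authors removed ribosomal RNA, read the libraries on an Ion Torrent S5XL, aligned reads to mm10 with STAR and Bowtie2 (versions not stated), counted unique unambiguous reads per gene, removed genes of low count with edgeR and deposited the counts of 12 mice. The deposited normalization factors, each a ratio to the other libraries, were made by the authors with edgeR, and TMM factors computed here equalled them.

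The count table holds no gene names. Each gene's mean normalized count was matched to the mean in the study's own DESeq2 table of genotype, at a relative tolerance of 1e-09. That table also holds the authors' fold changes, standard errors and p values. Its fold changes and standard errors served only to propose pairs from which the 12 size factors were solved, and none of its values is reported. Of 1684 names 1349 were paired. After each of 10 small shifts of the means at most 1 was. The members and lists were chosen with earlier results of these data known.

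A family needed at least 75 percent identity to an annotated snRNA symbol. U4atac and U6atac were assigned by hand from known motifs. A U1 gene under 97 percent identity was called diverged. Some sequences are not reported here.

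All genes entered an edgeR 4.0.16 quasi-likelihood fit with genotype, sex and batch, and for the interaction their product, in R 4.3.3, with Benjamini-Hochberg adjustment over all 15928 genes. DESeq2 1.42.0 was the other count model. The remaining steps used Python 3.11.15. The fit and the name match were tested on simulated data. Genes are named where their symbol starts with Rn, where they lead their family in level, or where they are among the 8 smallest or 4 largest unadjusted p for genotype or the 3 smallest for another contrast. Exceptions are said to be chosen after their values were seen.

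Alternatives covered the count model, scaling, filters, covariates, batch 1 alone, a stricter threshold and each mouse left out. Sex by Xist level, leaving out mice 41 and 80 together, the choroid plexus covariate and DESeq2 without mouse 41 were added after seeing the data.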

Additional observations from a re-analysis of the deposited data

Results flagged for a closer look

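A value was singled out when it lay far from the other mice of its group. The measure was Dixon's ratio, the gap to the nearest mouse over the range of the group. Such a rule singles out some values by chance, and how many was not worked out. Of 98 groups of values tested, 6 held such a mouse, and 4 of these were in Wt mouse 80. In that mouse the U12 family was at 432 CPM, where the nearest other Wt mouse had 1597 CPM, Rnu12 at 429 CPM (nearest 1589), Rnu5g at 1369 CPM (nearest 2573) and the U6 gene Gm24540 at 5.32 CPM (nearest 2.02). In Tg mouse 67 the U6 genes Gm24205 and Gm25790 were at 4.73 CPM (nearest 3.25) and 4.61 CPM (nearest 2.93). Rnu12 makes up most of the U12 sum, and Gm24205 and Gm25790 are identical in sequence, so these values are not separate. The cause was not tested.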

How the results depend on the processing

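Among 29 settings for the count of snRNA genes called between Tg and Wt mice, 27 gave 0, where at most 0.0126 percent of all genes were called, DESeq2 gave 10, beside 0.352 percent, and DESeq2 without mouse 41 gave 3, beside 0.132 percent. The median log2 fold change of 0.61 stayed between 0.49 and 0.67, and no gene named by the rule given with the fits turned in direction, in the contrast it was named for, under 788 alternative values. Genes chosen after their values were seen were not followed in this way. The median interaction of 0.46 was -0.03 among the 34 members with at least 10 CPM in at least 5 mice, and ran from -0.04 without Tg mouse 67 to 0.86 without Wt mouse 12. The cause was not tested. No paired analysis was possible because the Wt and Tg mice share no replicate numbers.

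With 5 Wt mice, 2 batches and sex unevenly spread, leaving out 1 mouse moved the counts at an unadjusted p under 0.05: from 67 to between 38 (without mouse 41 or 95, beside 4.73 and 9.64 percent of all genes) and 72 (without mouse 93, 9.40 percent) for genotype, from 15 to between 5 (without mouse 69, 6.25 percent) and 25 (without mouse 79, 11.8 percent) for batch, from 8 to between 2 (without mouse 67, 7.80 percent) and 23 (without mouse 95, 19.8 percent) for sex and from 4 to between 0 (without mouse 67, 6.54 percent) and 12 (without mouse 32, 5.71 percent, or without mouse 41, 6.13 percent) for the interaction, where without mouse 41 or 95 the Wt males were 1 mouse. Without any mouse left out 7.19, 7.64, 11.3 and 3.56 percent of all genes passed. Many members share a sequence and are not independent. The 14579 genes without a name could not be searched for further snRNA genes. U6 genes held few reads each, which limits their values.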
